A study of Homo sapiens with 26 samples.

Results

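The enzymes described here make serine and move its one-carbon units through the folate cycle. They were 10 genes chosen by symbol, PHGDH, PSAT1, PSPH, SHMT1, SHMT2, MTHFD1, MTHFD2, MTHFD1L, ALDH1L2 and ASNS, of 26485 rows in each expression table. All 10 were found in both tables and all 10 passed the filter on low counts, so none was left out.

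Serine is built from a glycolytic intermediate by successive steps that are catalysed in turn by PHGDH, PSAT1 and PSPH. The hydroxymethyltransferases SHMT1 in the cytosol and SHMT2 in mitochondria cleave serine to glycine and load its side-chain carbon onto tetrahydrofolate. In mitochondria MTHFD2 and MTHFD1L oxidise that carbon and release it as formate, ALDH1L2 burns it to carbon dioxide, and in the cytosol MTHFD1 takes formate up again for purine and thymidylate synthesis. ASNS makes asparagine from aspartate and is known, like PHGDH, PSAT1 and MTHFD2, as a target of ATF4, the transcription factor that answers amino acid shortage. MYCN-amplified neuroblastoma cells are known to express the serine pathway strongly.

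RNA sequencing was available for 26 libraries of KELLY, a widely used cell line derived from a human neuroblastoma with MYCN amplification. In cell culture, cells with a doxycycline-inducible lentiviral vector that was empty (labelled F1HUTG, here EV) or carried a short hairpin RNA against RUNX1T1 (sh4 or shAMB) were grown for 72 h with DMSO or with doxycycline, 3 libraries in each of 6 groups. In the xenografts, KELLY tumours grown under the skin of immunodeficient NOD SCID gamma mice that were 5 to 6 weeks old at engraftment, 4 libraries were labelled control with control food and 4 were labelled RUNX1T1 KO with doxycycline food. The study describes the xenograft cells as carrying its first hairpin, the one built on the Ambion siRNA sequence. The labels give a knock-out and name no hairpin, so these libraries are called by their label. All groups share MYCN amplification and, in culture, the vector backbone. Whether a line is 1 clone is not given in the sources used here. The DMSO and doxycycline columns of the culture table are headed Neg and Pos and were read so from these words alone, on which the direction of each culture comparison rests. The genotype labels of the hairpin lines end in a number that changes from library to library, so the line name in the title was used.

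RUNX1T1 mRNA, the target of both hairpins, did not pass the test for a fall in any doxycycline or KO comparison. Its log2 fold change (fitted, doxycycline over DMSO) was -0.16 in EV, -0.11 in sh4 and 0.056 in shAMB, and -0.23 in the xenografts, with adjusted p from edgeR of 0.672, 0.117, 0.378 and 0.229. Per library it lay at 44.1, 39.3 and 42.4 CPM in EV with DMSO against 36.5, 37.8 and 38.6 with doxycycline. In sh4 it was 34.7, 33.3 and 35.01 CPM against 31.2, 33.9 and 30.1, and in shAMB 40.8, 42.00 and 39.9 CPM against 41.3, 44.1 and 42.2. The control xenografts held 34.3, 43.1, 30.00 and 34.4 CPM and those labelled KO 24.3, 35.2, 27.3 and 33.9. Before induction RUNX1T1 was lower in sh4 than in EV, both with DMSO (-0.29, log2, adjusted p = 0.0144, edgeR). The effect of doxycycline on it was higher in shAMB than in EV (0.21, log2, adjusted p = 0.0353, edgeR), the direction opposite to a knockdown. The RNA level of the target thus does not check the labels, and the protein was not analysed here. The study itself reports lower RUNX1T1 protein in KELLY cells with each of its hairpins after 72 h of doxycycline. It also reports loss of RUNX1T1 staining in KELLY xenografts after the knockdown. Total counts per library ran from 35115915 to 54736733 in culture and from 47346063 to 62378060 in the xenografts, and the members held 620 to 23117 counts per library. Summed neuroblast markers (10 genes) reached 2210 to 3873 CPM over all groups, whereas 5 endothelial and 5 leukocyte markers stayed under 3 CPM in sum. The 7 fibroblast markers summed to 57.8 to 94.8 CPM in control xenografts and 85.7 to 129 CPM in those labelled KO, against 75.1 to 140.2 CPM over the culture groups. In sh4 the fibroblast sum was 83.5 to 107.6 CPM with DMSO and 101 to 140.2 CPM with doxycycline, and its part in the results was not tested. In bulk RNA, fewer cells of a type and less RNA per cell cannot be told apart. Nothing in the labels says that replicates came from separate cultures, so p-values measure the spread between these libraries, which may be technical.

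Levels are given as CPM, the count scaled by edgeR to a common library size, and comparisons between genes as CPM per kilobase of the deposited gene length. In EV cells with DMSO, MTHFD2 was the most abundant of the 10 enzyme mRNAs at 191 ± 10.4 CPM per kb (SD, n = 3). It was followed by MTHFD1 (84.6 ± 2.37), ASNS (79.6 ± 4.55), PHGDH (70.8 ± 14.9) and PSAT1 (66.2 ± 1.90), whose neighbouring ranges overlapped at each step. A lower tier held SHMT2 at 35.9 ± 6.26 and MTHFD1L at 35.4 ± 0.470 CPM per kb, which did not differ beyond their spread. SHMT1 (18.4 ± 1.47) and PSPH (17.7 ± 0.812) came next with overlapping ranges, and ALDH1L2 was lowest at 4.73 ± 0.375 CPM per kb. MTHFD2 ranked highest and ALDH1L2 lowest in each of the 8 groups. The position of PHGDH in the order moved most. It ranked between 2 and 5 of 10 in the EV, sh4 and shAMB DMSO groups and in EV and sh4 with doxycycline, and 7 of 10 in shAMB cells with doxycycline (13.5 ± 0.991 CPM per kb). In the xenografts it ranked 3 of 10 in the control libraries (57.2 ± 6.98 CPM per kb, SD, n = 4) and 7 of 10 in the libraries labelled KO (11.5 ± 3.84).

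**Figure D1:**
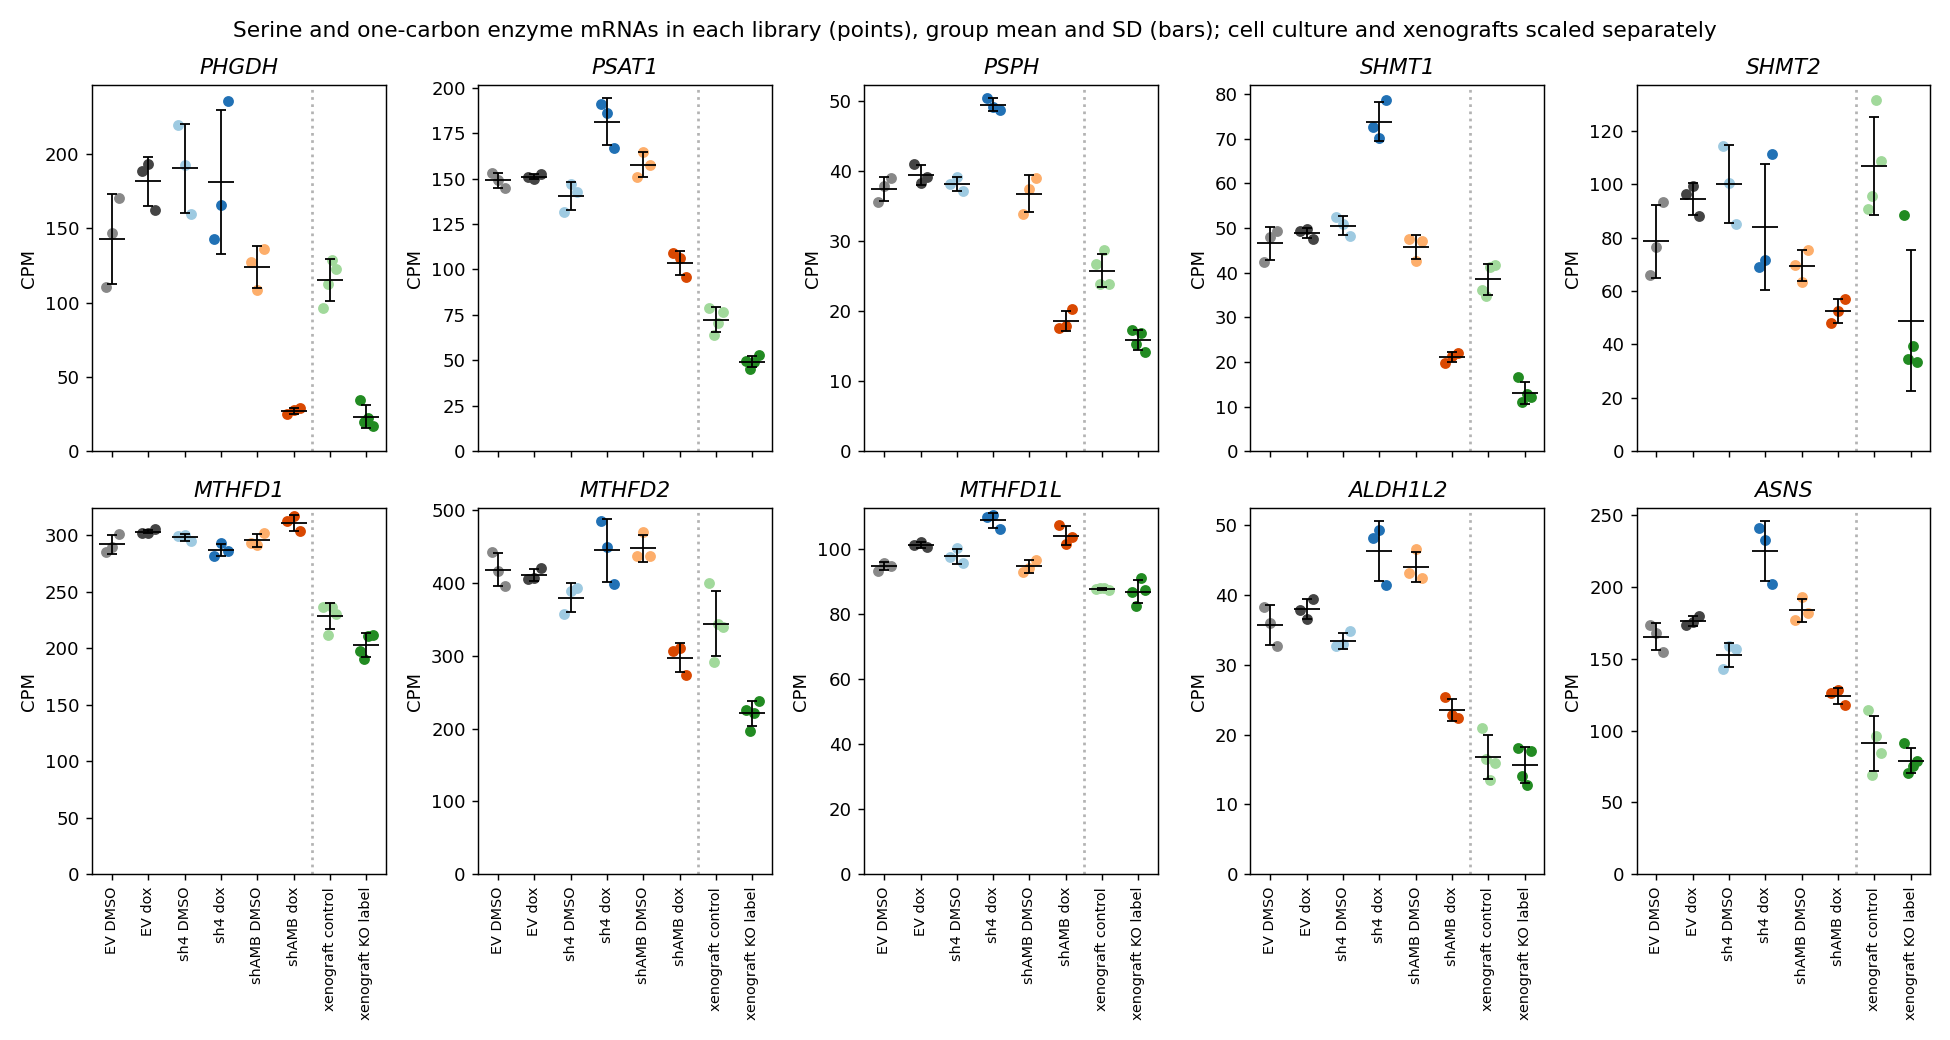
Level of each of the 10 enzyme mRNAs (vertical axes, CPM, starting at 0) in every library of the 8 groups; points are libraries, horizontal bars group means and error bars SD (n = 3 in culture, n = 4 in xenografts, tables scaled separately). PHGDH sits at 24.9 to 28.8 CPM in shAMB with doxycycline and above 100 CPM in the other culture groups, whereas MTHFD1 and MTHFD1L stay nearly level.

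Doxycycline alone changed none of the enzymes past the threshold. In EV cells 0 of 10 passed an adjusted p of 0.05 in edgeR's quasi-likelihood test, where 0.0134% of all genes tested were called higher and 0.0805% lower. Without adjustment, 1 member had a p under 0.05, MTHFD1L (log2 fold change 0.097 ± 0.034 SE), and DESeq2 and limma also called 0. With trends in GC content and length removed 2 were called higher, ALDH1L2 (0.21, adjusted p = 0.0284) and ASNS (0.18, adjusted p = 0.0141), and only ASNS when the replicate block was added. PHGDH had the widest interval in EV, namely 0.35 on the log2 scale with a 95% confidence interval of -0.024 to 0.72, so that a change of that size could not be detected.

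In shAMB cells 8 of the 10 enzymes fell with doxycycline and 1 rose, against 28.4% of all genes tested called lower and 37.6% called higher. The median log2 fold change of the members was -0.60, that of all genes 0.096. In sh4 cells 7 rose and 0 fell, against 22.9% of all genes called higher and 18% lower, with a median of 0.30 for the members and -0.0046 for all genes. PSAT1, PSPH, SHMT1, MTHFD2, ALDH1L2 and ASNS, 6 of 10, rose in sh4 and fell in shAMB, a combination found for 6.94% of all genes tested. In the xenografts labelled KO 6 of 10 were lower than in controls and 0 higher, where 19.9% of all genes were called lower and 21.2% higher. With limma on TPM 3 were lower, and PSAT1 (-0.50, adjusted p = 0.350), PSPH (-0.59, adjusted p = 0.233) and MTHFD2 (-0.59, adjusted p = 0.255) lost their calls. PHGDH, PSAT1, PSPH, SHMT1, SHMT2 and MTHFD2 fell both in shAMB cells and in those xenografts, as did 16.7% of the genes tested in both tables.

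**Figure D2:**
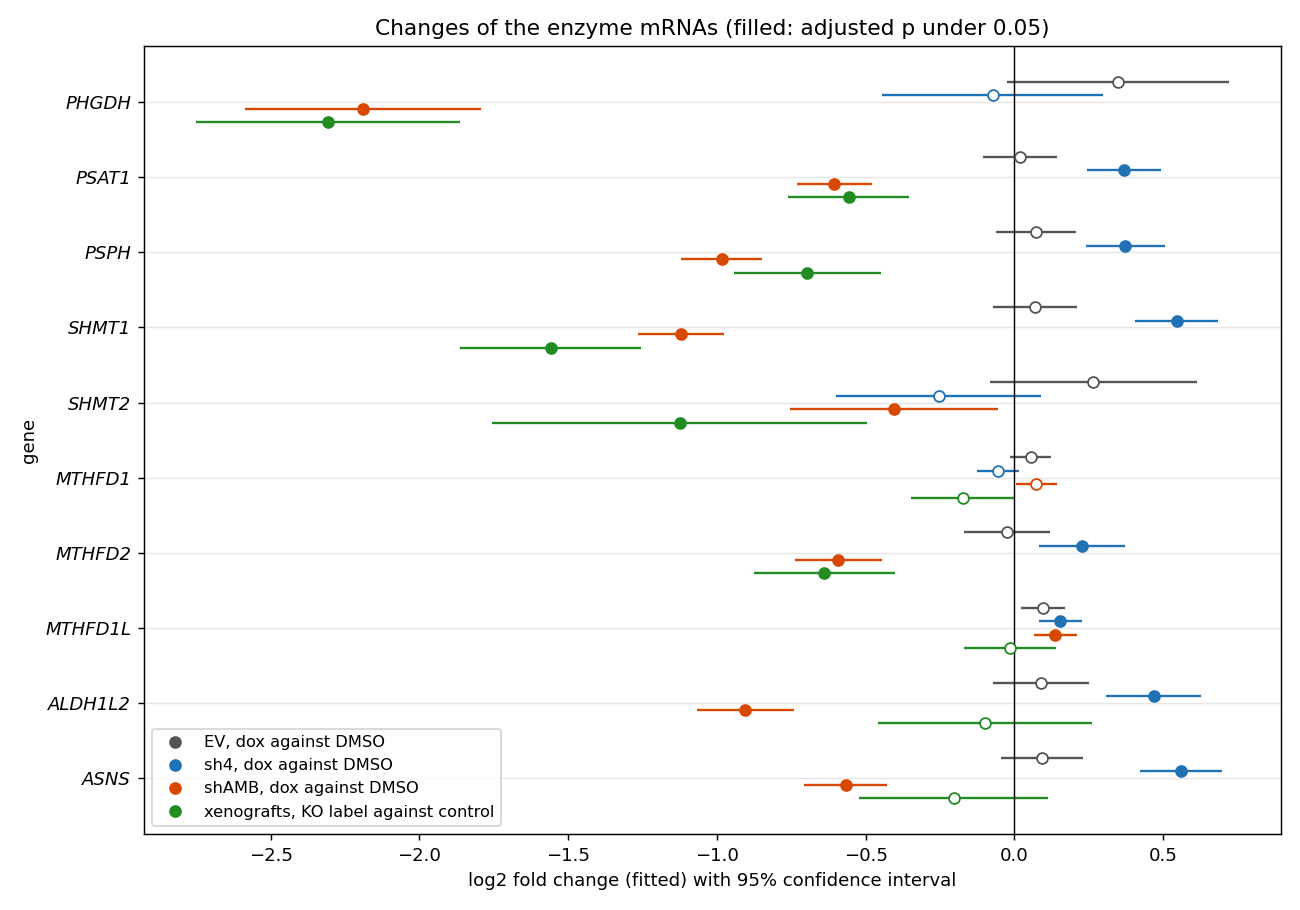
Fitted log2 fold change (horizontal axis) of each enzyme mRNA with its 95% confidence interval in 4 comparisons; filled points passed an adjusted p of 0.05. The sh4 points of PSAT1, PSPH, SHMT1, MTHFD2, ALDH1L2 and ASNS lie right of 0 and their shAMB points left of it, and PHGDH reaches -2.19 in shAMB and -2.31 in the xenografts.

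PHGDH, the first and committed enzyme of serine synthesis (chr1:119711934-119744215, plus strand, hg38), showed the largest fall of the 10 in shAMB and in the xenografts. In shAMB cells the 3 DMSO libraries held 127, 108 and 136 CPM and the 3 doxycycline libraries 24.9, 27.6 and 28.8 CPM. Every doxycycline library thus lay far below every DMSO library, and the mRNA fell to 0.219 of its DMSO level (log2 fold change -2.19 ± 0.19 SE, adjusted p = 6.14e-08, edgeR). In the xenografts the control libraries held 96.7, 113, 129 and 123 CPM and the libraries labelled KO 34.3, 19.4, 22.5 and 16.9 CPM, again without overlap. The fitted level fell to 0.202 of control (log2 fold change -2.31 ± 0.20 SE, adjusted p = 2.09e-05, edgeR).

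In sh4 cells PHGDH was 219, 192 and 159.6 CPM with DMSO and 143, 166 and 235 CPM with doxycycline, so that the groups overlapped throughout. The change did not pass the test (log2 fold change -0.073, 95% confidence interval -0.44 to 0.30, adjusted p = 0.763, edgeR). Doxycycline replicate 3 of sh4 was the highest of all culture libraries, and without it the log2 fold change in sh4 was -0.31, adjusted p = 0.108. In EV cells the libraries read 111, 147 and 171 CPM with DMSO and 189, 193 and 163 CPM with doxycycline, which overlapped. The effect of doxycycline on PHGDH differed between shAMB and EV by -2.54 on the log2 scale and between sh4 and shAMB by 2.12, with adjusted p of 1.01e-06 and 4.36e-06 in edgeR. Between sh4 and EV the difference was -0.42 (95% confidence interval -0.95 to 0.10) and did not pass, but it passed without sh4 doxycycline replicate 3 (-0.65, adjusted p = 0.0173).

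PSAT1, the aminotransferase of the next step (chr9:78297125-78330093, plus strand), moved in opposite directions in the hairpin lines. It was 132, 147 and 143 CPM in sh4 with DMSO and 191, 186 and 167 CPM with doxycycline, a rise to 1.29-fold (log2 fold change 0.37 ± 0.058 SE, adjusted p = 0.000106, edgeR). In shAMB it went from 151, 165 and 157 CPM to 109, 106 and 96.1 CPM and fell to 0.658 of DMSO (log2 fold change -0.60 ± 0.059 SE, adjusted p = 2.73e-07, edgeR). Neither pair of groups overlapped, while EV stayed at 153, 149 and 145 CPM and 151, 150.0 and 153 CPM. In the xenografts it was 78.7, 63.8, 70.7 and 76.6 CPM in controls and 49.8, 45.4, 48.99 and 52.8 CPM under the KO label. These groups were apart and the level fell to 0.680 of control (adjusted p = 0.000780, edgeR).

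PSPH, the phosphatase that releases free serine (chr7:56011064-56051444, minus strand), followed the same directions at a lower level. The sh4 libraries held 38.2, 39.3 and 37.2 CPM with DMSO and 50.5, 49.2 and 48.8 CPM with doxycycline. The doxycycline libraries were all higher, by 0.37 ± 0.063 SE on the log2 scale (adjusted p = 0.000180, edgeR). In shAMB the values were 33.9, 37.5 and 39.05 CPM against 17.7, 17.8 and 20.3 CPM, and the level fell to 0.506 of DMSO (adjusted p = 3.04e-09, edgeR). The xenografts held 26.8, 23.8, 28.7 and 23.9 CPM in controls and 17.3, 15.3, 16.96 and 14.2 CPM under the KO label, where it fell to 0.617 of control (adjusted p = 0.000685, edgeR). EV libraries overlapped, with 35.7, 37.9 and 39.03 CPM and 41.02, 38.3 and 39.2 CPM.

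The ratio of PHGDH to PSAT1, the first steps of serine synthesis, was lower where PHGDH fell. Per length and within a library, PHGDH over PSAT1 was 0.736 to 0.964 in shAMB with DMSO and 0.256 to 0.335 with doxycycline. In the xenografts the ratio was 1.37 to 2.04 in controls and 0.357 to 0.771 under the KO label. Both pairs of groups were apart, while the ratios in EV (0.808 to 1.32 and 1.19 to 1.44) and in sh4 (1.25 to 1.86 and 0.833 to 1.58) overlapped. These ratios are given as a description and were not tested.

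SHMT1, the cytosolic hydroxymethyltransferase (chr17:18327873-18363550, minus strand), showed the largest difference between the hairpin lines after PHGDH. In sh4 it was 52.5, 51.02 and 48.2 CPM with DMSO and 72.7, 70.2 and 78.7 CPM with doxycycline, without overlap. This was a rise to 1.46-fold (log2 fold change 0.55 ± 0.066 SE, adjusted p = 7.32e-06, edgeR). In shAMB it fell from 47.5, 42.7 and 47.2 CPM to 19.8, 21.4 and 22.04 CPM, to 0.460 of DMSO (log2 fold change -1.12 ± 0.068 SE, adjusted p = 1.32e-09, edgeR). In the xenografts the controls held 36.2, 34.9, 41.4 and 41.7 CPM and the KO-labelled libraries 16.6, 10.9, 12.7 and 12.1 CPM, and the level fell to 0.339 of control (log2 fold change -1.56 ± 0.14 SE, adjusted p = 2.26e-05, edgeR). EV stayed within 42.3, 48.1 and 49.3 CPM and 49.3, 49.7 and 47.5 CPM. The doxycycline effect in sh4 exceeded that in shAMB by 1.67 ± 0.095 SE on the log2 scale (adjusted p = 1.52e-09, edgeR).

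SHMT2, its mitochondrial counterpart (chr12:57229711-57234935, plus strand), did not rise in sh4. It read 114, 101 and 85.3 CPM there with DMSO and 69.1, 71.6 and 111 CPM with doxycycline, and the change did not pass (log2 fold change -0.25 ± 0.16 SE, adjusted p = 0.227, edgeR). Doxycycline replicate 3 decided this, since without it SHMT2 passed as lower (-0.51, adjusted p = 0.00409). In shAMB it was 69.8, 63.4 and 75.3 CPM with DMSO and 48.1, 52.6 and 57.1 CPM with doxycycline. The groups were apart and the fall passed narrowly (log2 fold change -0.40 ± 0.16 SE, adjusted p = 0.0412, edgeR). The call was lost without DMSO replicate 1 or 3 or doxycycline replicate 1 or 2 of shAMB, with log2 fold changes of -0.40, -0.35, -0.35 and -0.40. It was also lost with limma on TPM (-0.25, adjusted p = 0.148). EV held 66.2, 76.5 and 93.4 CPM and 96.3, 99.3 and 87.96 CPM.

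In the xenografts SHMT2 was 90.9, 95.7, 132 and 109 CPM in controls and 88.4, 34.7, 39.2 and 33.5 CPM under the KO label. Replicate 1 of the KO label stood well above the other libraries and close to the lowest control. Over all 4 libraries SHMT2 fell to 0.458 of control (log2 fold change -1.13 ± 0.29 SE, adjusted p = 0.00921, edgeR), and without replicate 1 the log2 fold change was -1.58, adjusted p = 1.37e-05. The same library had the highest PHGDH and SHMT1 of its group.

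In EV with DMSO, PHGDH and SHMT2 varied more between libraries than the other members did. The highest library exceeded the lowest 1.54-fold for PHGDH and 1.41-fold for SHMT2, against 1.03-fold for MTHFD1L and 1.06-fold for MTHFD1 and for PSAT1. The libraries of each culture group stood in the same order for both genes. The points share the library. Genes outside the members also spread in this group, such as SLC19A1 at 5.32 to 9.11 CPM, while MTR read 127 to 140 CPM. The transcript GC content was 57.0% for SHMT2, 52.3% for PHGDH, 52.6% for SHMT1 and 51.3% for MTHFD1L. For SHMT1 and MTHFD1L the highest library exceeded the lowest 1.16-fold and 1.03-fold. With trends in GC content and length removed the log2 fold change of SHMT2 in sh4 was -0.14, adjusted p = 0.104. What made these libraries differ was not tested.

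The ratio of SHMT2 to SHMT1 per length was lower with doxycycline in sh4 and higher in shAMB, as a description of the libraries. In sh4 it was 2.05 to 2.52 with DMSO and 1.10 to 1.64 with doxycycline. In shAMB it was 1.70 to 1.85 with DMSO and 2.81 to 3.00 with doxycycline, and neither pair of ranges overlapped. In EV the ranges 1.81 to 2.19 and 2.14 to 2.31 overlapped, as did 2.90 to 3.69 in control and 3.21 to 6.18 in KO-labelled xenografts.

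**Figure D3:**
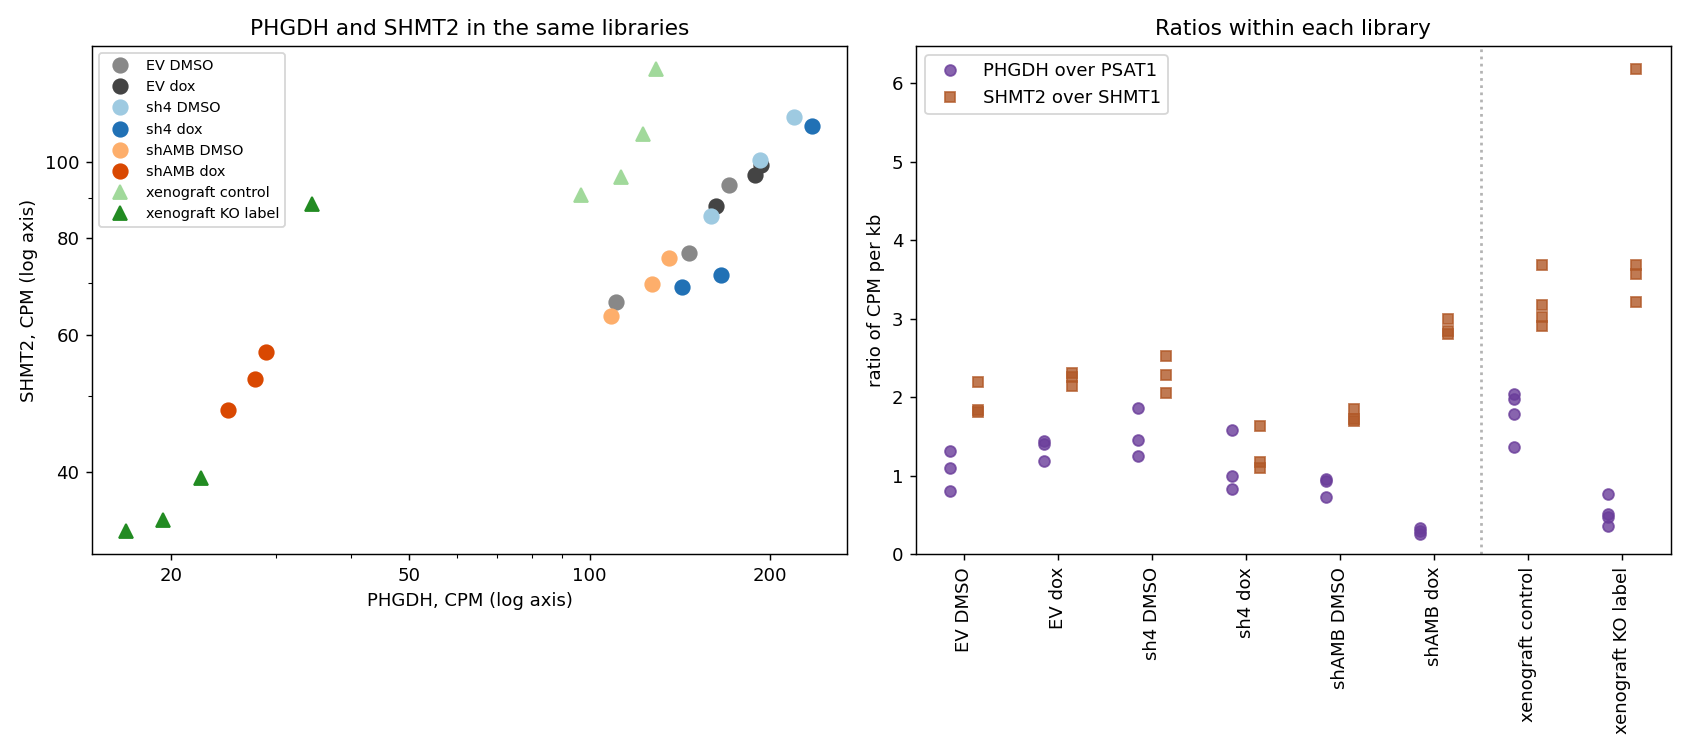
Left, PHGDH (horizontal, CPM, log axis) against SHMT2 (vertical, CPM, log axis) in each library, circles for culture and triangles for xenografts. Right, PHGDH over PSAT1 (circles) and SHMT2 over SHMT1 (squares) per length in each library of the 8 groups; the first drops to 0.256 to 0.335 in shAMB with doxycycline, and KO-labelled xenograft replicate 1 reaches 6.18 in the second.

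MTHFD2, the mitochondrial dehydrogenase and cyclohydrolase (chr2:74198615-74217565, plus strand), had the highest level and a modest response. In shAMB it was 437, 469 and 438 CPM with DMSO and 307, 310.1 and 274 CPM with doxycycline, and fell to 0.663 of DMSO (log2 fold change -0.59 ± 0.068 SE, adjusted p = 1.85e-06, edgeR). In the xenografts the controls held 401, 292, 343 and 340.1 CPM and the KO-labelled libraries 226, 197, 222 and 238 CPM, a fall to 0.642 of control (adjusted p = 0.000890, edgeR). Both pairs of groups were apart. In sh4 it was 357, 389 and 393 CPM and 485, 450.0 and 399 CPM, also apart, and rose to 1.17-fold (log2 fold change 0.23 ± 0.068 SE, adjusted p = 0.0142, edgeR). The rise lost its call without DMSO replicate 1 (0.17, adjusted p = 0.115) or doxycycline replicate 1 (0.16, adjusted p = 0.0880) of sh4 and when only the sh4 libraries were fitted (0.23, adjusted p = 0.0913). EV overlapped at 442, 416 and 396 CPM and 406, 407 and 420.0 CPM. A listed pseudogene, MTHFD2P1, held 0 counts in every culture library and at most 3 in a xenograft.

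ALDH1L2, the mitochondrial formyltetrahydrofolate dehydrogenase (chr12:105019790-105084458, minus strand), was called in both hairpin lines and not in the xenografts, and the culture and xenograft effects were not tested against each other. In sh4 it rose from 32.6, 32.9 and 34.8 CPM to 48.1, 49.3 and 41.4 CPM (log2 fold change 0.47 ± 0.075 SE, adjusted p = 0.000113, edgeR). In shAMB it fell from 43.1, 46.5 and 42.4 CPM to 25.4, 22.8 and 22.4 CPM (log2 fold change -0.90 ± 0.076 SE, adjusted p = 5.25e-08, edgeR). Both changes separated the groups, while EV overlapped at 38.3, 36.01 and 32.7 CPM and 37.9, 36.6 and 39.5 CPM. The xenografts held 21.00, 16.5, 13.4 and 15.99 CPM in controls and 18.01, 14.1, 12.8 and 17.6 CPM under the KO label, which overlapped. Their log2 fold change of -0.098 had a 95% confidence interval of -0.46 to 0.26 (adjusted p = 0.668, edgeR). With trends in GC content and length removed, the difference of the effects in sh4 and EV lost its call (0.068, adjusted p = 0.346, against 0.38 with adjusted p = 0.0128 without that correction, edgeR).

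ASNS, the asparagine synthetase (chr7:97851677-97928441, minus strand), moved in the same directions as ALDH1L2. It rose in sh4 from 143, 159 and 156 CPM to 241, 232 and 202 CPM, to 1.47-fold (log2 fold change 0.56 ± 0.065 SE, adjusted p = 4.62e-06, edgeR). It fell in shAMB from 177, 193 and 182 CPM to 126, 128 and 118 CPM, to 0.675 of DMSO (log2 fold change -0.57 ± 0.065 SE, adjusted p = 1.70e-06, edgeR). The hairpin lines each separated their groups, while EV read 173, 168 and 155 CPM and 173, 176 and 180.0 CPM with overlap. In the xenografts 114, 68.9, 96.3 and 84.6 CPM in controls and 91.2, 70.6, 75.5 and 78.8 CPM under the KO label overlapped, and the log2 fold change of -0.20 (95% confidence interval -0.52 to 0.11) did not pass. In the GENCODE annotation 49.3% of the exon bases of ASNS lie in another gene on the same strand. How reads in the shared bases were assigned is not given in the sources used here. The expected counts of ASNS were whole numbers in every library. Those of SHMT1 were fractional in every library and those of MTHFD1 in some.

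MTHFD1, the trifunctional cytosolic enzyme (chr14:64388353-64460025, plus strand), and MTHFD1L, the mitochondrial formate-releasing synthetase (chr6:150865702-151101887, plus strand), stayed nearly level. MTHFD1 read 293, 291 and 302 CPM in shAMB with DMSO and 312, 316 and 303 CPM with doxycycline, and 299, 300.4 and 294 CPM and 282, 293 and 286 CPM in sh4. Its log2 fold change was 0.074 (95% confidence interval 0.0044 to 0.14) in shAMB and -0.055 (-0.12 to 0.015) in sh4. These intervals exclude changes of the size seen for SHMT1. Without doxycycline replicate 3 of shAMB its small difference there passed (0.090, adjusted p = 0.0389), and with limma on TPM the direction in sh4 turned (0.12, adjusted p = 0.00272). In the xenografts MTHFD1 was 236, 212, 236 and 230.1 CPM in controls and 197, 190.5, 211 and 212 CPM under the KO label, with a log2 fold change of -0.17 (adjusted p = 0.104, edgeR) that passed without control replicate 2 (-0.22, adjusted p = 0.0433). In EV it was 285, 289.8 and 301 CPM and 302, 302 and 305 CPM. On the other strand, annotated genes overlap 11.1% of the exon bases of MTHFD1, 14.1% of those of MTHFD2 and 8.38% of those of SHMT2, and whether counting used the strand is not given in the sources used here.

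MTHFD1L passed as higher in both hairpin lines by small amounts. It was 97.5, 100.2 and 95.7 CPM in sh4 with DMSO and 109.7, 111 and 106 CPM with doxycycline (log2 fold change 0.15 ± 0.034 SE, adjusted p = 0.00186, edgeR). In shAMB it was 93.02, 94.3 and 96.7 CPM and 107, 101 and 104 CPM (log2 fold change 0.14 ± 0.034 SE, adjusted p = 0.00238, edgeR). The log2 median of all genes in shAMB was 0.096 under this scaling, and with RLE size factors the MTHFD1L value was 0.063, adjusted p = 0.180, so the call rests on the scaling. The sh4 call was lost when only sh4 libraries were fitted (0.15, adjusted p = 0.0645). EV held 93.4, 95.8 and 94.9 CPM and 101, 102 and 101 CPM, and the effects in sh4 and shAMB did not pass as different from EV (log2 differences 0.057 and 0.040). The xenografts held 87.6, 88.2, 87.9 and 87.4 CPM in controls and 86.7, 82.6, 91.03 and 87.6 CPM under the KO label (log2 fold change -0.013, 95% confidence interval -0.17 to 0.14).

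Promoter stretches are shown for the members in which either of 2 sets of letters known from this pathway was found. ASNS and MTHFD1L both hold the first set. Both rose in sh4, ASNS fell and MTHFD1L rose in shAMB, and neither was called in the xenografts. The windows are from the RefSeq promoter table (GRCh38.p14, hg38), which spans 250 bases before to 50 after a start. PHGDH, PSAT1, SHMT1, MTHFD1, MTHFD2, MTHFD1L and ASNS matched by symbol, and PSPH, SHMT2 and ALDH1L2 did not. Capitals mark the letters searched on both strands. They are TGATGNAA of amino acid response elements and CACGTG of the E-box bound by MYC family proteins and MAX. Positions count from the start of the first promoter entry listed for the gene, and other starts were not searched. For ASNS and MTHFD1L this start lies inside the gene range given above.
ASNS, TGATGNAA at -68, chr7:97872459-97872486, minus strand: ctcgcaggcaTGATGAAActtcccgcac
MTHFD1L, TGATGNAA at -129, chr6:150866347-150866374, plus strand: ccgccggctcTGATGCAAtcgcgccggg
MTHFD1L, CACGTG at -154, chr6:150866322-150866347, plus strand: cgcccggctcCACGTGcgcagccggc
MTHFD1, CACGTG at -15, chr14:64388328-64388353, plus strand: agtccctaagCACGTGggttgggttg
Of all 35116 promoters in the table, 1270 (3.617%) held the first set of letters and 2548 (7.256%) the second. PHGDH, PSAT1, SHMT1 and MTHFD2 held neither in this window. Whether these letters bear on the changes was not tested.

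The doxycycline effects were compared directly between lines, since a call in 1 line and not in another does not show a difference. Relative to EV, 5 of 10 members responded higher in sh4 (PSAT1, PSPH, SHMT1, ALDH1L2 and ASNS) and 0 lower, against 17.8% and 14.7% of all genes. The log2 differences of these 5 ran from 0.30 in PSPH to 0.48 in SHMT1. Without EV DMSO replicate 3 or without sh4 doxycycline replicate 3 the count was 8. MTHFD2 then passed as higher (0.29 and 0.33) and SHMT2 as lower (-0.66 and -0.77), MTHFD1 passed as lower without the first library (-0.13) and PHGDH without the second. Relative to EV, 8 responded lower in shAMB and 0 higher, against 21.7% and 23.7% of all genes. The log2 differences ran from -2.54 in PHGDH to -0.57 in MTHFD2. SHMT2 (-0.67, adjusted p = 0.0277, edgeR) lost this call without EV DMSO replicate 1 or 2, EV doxycycline replicate 1 or 2, shAMB DMSO replicate 3 or shAMB doxycycline replicate 1, at -0.66 to -0.56.

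Between the hairpins the effect was higher in sh4 for 7 members and lower for 1, against 27.8% and 33.1% of all genes. The 7 were PHGDH, PSAT1, PSPH, SHMT1, MTHFD2, ALDH1L2 and ASNS, with log2 differences from 0.82 in MTHFD2 to 2.12 in PHGDH. The 1 lower was MTHFD1 at -0.13 (adjusted p = 0.0248, edgeR), a call lost with RLE size factors (-0.062, adjusted p = 0.289) and in 7 of the 12 fits that left out a library of these lines: DMSO replicates 1 and 2 and doxycycline replicates 1 and 3 of sh4, and DMSO replicates 1 and 2 and doxycycline replicate 2 of shAMB, at -0.093 to -0.12. SHMT2 (0.15, 95% confidence interval -0.34 to 0.64) and MTHFD1L (0.017, -0.086 to 0.12) did not pass. These comparisons of effects share libraries.

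Before doxycycline, differences between the lines in these enzymes did not pass the test. With DMSO, 0 of 10 members were called between sh4 and EV (0.597% of all genes higher, 0.523% lower) and 0 of 10 between shAMB and EV (1.11% higher, 0.416% lower) by edgeR. At an unadjusted p under 0.05 there were 2 members in each, PHGDH (0.42, 95% confidence interval 0.047 to 0.79) and SHMT2 (0.35, 0.0029 to 0.70) in sh4 and ALDH1L2 (0.30) and ASNS (0.15) in shAMB, as log2 fold changes. DESeq2 called 0 in sh4 and 1 in shAMB, which was ALDH1L2 (0.31, adjusted p = 0.0368), and so did edgeR without EV DMSO replicate 1 (0.36, adjusted p = 0.0483) or with GC content and length trends removed (0.26, adjusted p = 0.000747).

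Culture and xenograft tables were normalized separately, so their levels are given side by side with no test. Means in EV with DMSO and in control xenografts were 149 ± 4.28 CPM (SD, n = 3) and 72.5 ± 6.67 CPM (SD, n = 4) for PSAT1. For ASNS they were 165 ± 9.45 and 91.00 ± 19.2 CPM, and for ALDH1L2 35.7 ± 2.83 and 16.7 ± 3.15 CPM. SHMT2 stood at 78.7 ± 13.7 and 107 ± 18.3 CPM, the 1 member with a higher mean in the control xenografts.

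Neighbouring pathways were described by lists of genes, with the calls over all genes tested as background. That background was 22.9% higher and 18% lower in sh4, 37.6% and 28.4% in shAMB, and 21.2% and 19.9% in the xenografts. The counts of each list were not tested against it. Of 12 tested genes of the rest of the folate cycle, 1 was higher and 3 lower in sh4, 4 and 5 in shAMB, and 1 and 5 in the xenografts. SLC25A32, the carrier that brings folate into mitochondria, fell in sh4 from a mean of 51.4 to 13.8 CPM (log2 fold change -1.90 ± 0.075 SE, adjusted p = 3.42e-11, edgeR) and did not pass in shAMB (-0.053) or the xenografts (-0.081). That response differed between sh4 and shAMB by -1.84 on the log2 scale (adjusted p = 1.11e-09, edgeR). MTHFD2L, a paralogue of MTHFD2 at 4.09 CPM in EV with DMSO, fell in sh4 (-0.80) and rose in shAMB (0.36) and the xenografts (0.68), each opposite to MTHFD2. SLC19A1, the plasma membrane carrier of reduced folate, rose in shAMB (0.77) and read 0.21 in EV, which did not pass. Its 7.90 to 11.4 CPM in shAMB with doxycycline lay within the 7.76 to 12.6 CPM of sh4 with DMSO.

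Of the 6 genes of glycine cleavage and conversion, 1 was higher and 2 lower in sh4, 2 and 4 in shAMB, and 1 and 3 in the xenografts. The glycine cleavage genes GLDC, AMT and GCSH fell in shAMB (log2 fold change -0.19, -0.56 and -0.83) and in the xenografts (-1.001, -0.91 and -0.63). GLDC also fell in sh4 (-0.64), where AMT (-0.23) and GCSH (-0.043) did not pass. DLD, also on this list, had means of 85.6 CPM with DMSO and 68.8 CPM with doxycycline in sh4, and 101 and 84.6 CPM in shAMB. Its mean was 67.4 CPM in control xenografts and higher, at 76.2 CPM, under the KO label. GLYCTK, the glycerate kinase, rose in shAMB (1.17) and read 0.35 in EV, which did not pass. Its 4.41 to 6.83 CPM in shAMB with doxycycline lay within the 3.77 to 6.86 CPM of sh4 with DMSO. Of 10 tested genes of the methionine cycle and transsulfuration, 3 were higher and 3 lower in sh4, 1 and 7 in shAMB, and 1 and 3 in the xenografts. AHCY, which hydrolyses S-adenosylhomocysteine, and MTAP, which salvages methionine, fell in sh4 (-0.42 and -1.16), in shAMB (-0.72 and -0.39) and in the xenografts (-1.16 and -0.81). CTH, the last enzyme on the way to cysteine, rose in the same comparisons (0.25, 0.39 and 0.60). MTR, the methionine synthase, fell in shAMB (-0.34) and the xenografts (-0.50).

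Of 13 tested genes of serine transport and use, 5 were higher and 0 lower in sh4, 4 and 4 in shAMB, and 1 and 5 in the xenografts. SFXN1, a mitochondrial serine carrier, rose in sh4 from a mean of 127 to 215 CPM (log2 fold change 0.76 ± 0.045 SE, adjusted p = 2.91e-09, edgeR). It also passed as higher in shAMB by a smaller amount (0.14, adjusted p = 0.0118, edgeR) and did not pass in the xenografts (0.24). Its paralogue SFXN3 rose in shAMB (2.39) and the xenografts (1.21), SFXN2 fell in both (-0.28 and -0.81), and so did SPTLC2, a subunit of the serine palmitoyltransferase (-0.77 and -0.69). Of 11 tested genes of other amino acid synthesis, 4 were higher and 1 lower in sh4, 5 and 3 in shAMB, and 2 and 3 in the xenografts. ASS1, the argininosuccinate synthase, rose in shAMB from a mean of 68.00 to 782 CPM (log2 fold change 3.52 ± 0.16 SE, adjusted p = 4.17e-11, edgeR), in the xenografts from 70.5 to 471 CPM (2.74) and slightly in sh4 (0.38). ASL (1.44) and GPT2 (0.57) rose in shAMB, and the proline enzyme ALDH18A1 rose in sh4 (0.25) and fell in shAMB (-0.64) and the xenografts (-0.95).

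**Figure D4:**
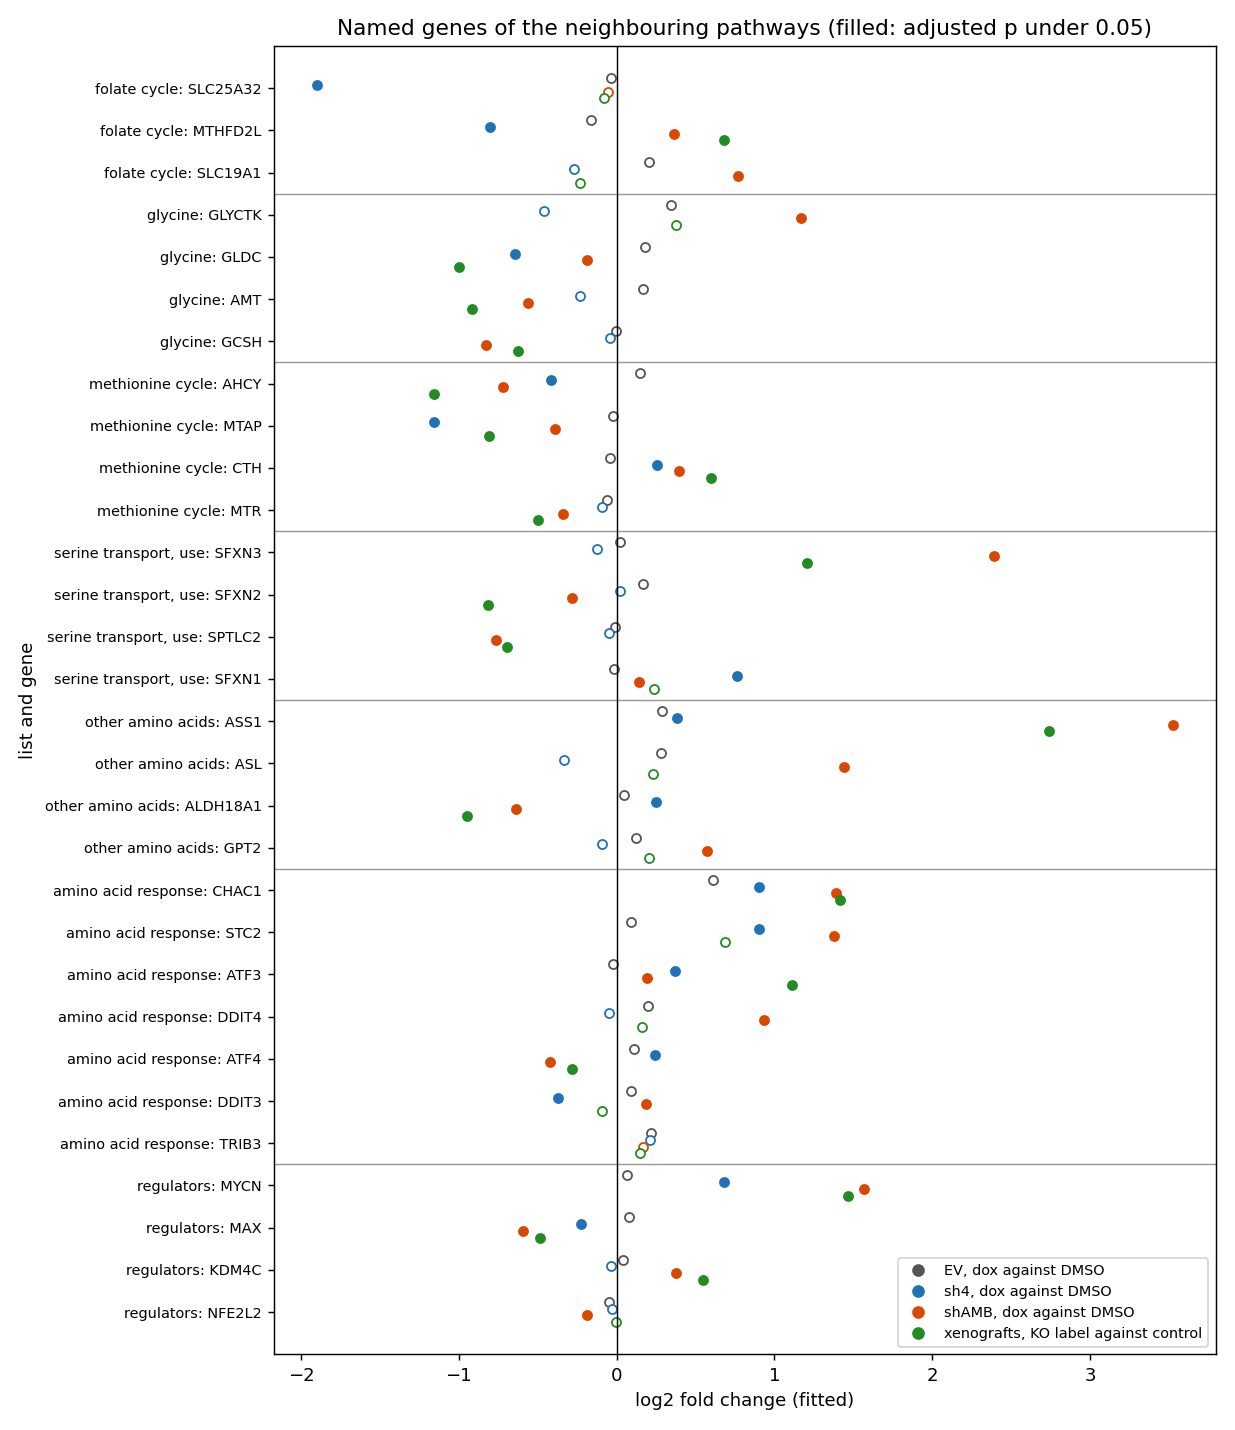
Fitted log2 fold change (horizontal axis) of the named genes of 7 neighbouring lists (vertical axis) in the 4 comparisons; filled points passed an adjusted p of 0.05. ASS1 lies at 3.52 in shAMB and 2.74 in the xenografts, and SLC25A32 at -1.90 in sh4.

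Of 19 tested genes of the amino acid response, 8 were higher and 1 lower in sh4, 9 and 4 in shAMB, and 3 and 2 in the xenografts. ATF4 mRNA itself rose in sh4 from a mean of 537 to 635 CPM (log2 fold change 0.24 ± 0.046 SE, adjusted p = 0.000509, edgeR) and fell in shAMB from 569 to 425 CPM (log2 fold change -0.42 ± 0.046 SE, adjusted p = 9.87e-07, edgeR). It fell in the xenografts as well (-0.28, adjusted p = 0.0220, edgeR). ATF4 is controlled mainly through its translation, which RNA does not measure. CHAC1, a glutathione-degrading ATF4 target at 1.43 CPM in EV with DMSO, rose in sh4 (0.90), shAMB (1.39) and the xenografts (1.42). ATF3 rose in the same comparisons (0.37, 0.19 and 1.11), STC2 in sh4 (0.90) and shAMB (1.37), and DDIT4 in shAMB (0.93). DDIT3, which encodes CHOP, fell in sh4 (-0.37). It passed narrowly as higher in shAMB (0.19, adjusted p = 0.0452, edgeR), where the median of all genes was 0.096. Its EV value of 0.093 did not pass. TRIB3 passed in none of sh4, shAMB and the xenografts (0.21, 0.17 and 0.15). In shAMB, CHAC1, STC2, ATF3 and DDIT4 moved opposite to PHGDH, PSAT1, MTHFD2 and ASNS, while ATF4 mRNA moved with these enzymes. These 4 genes were picked for the size of their change, and 4 of the 19, ATF4 among them, were called lower in shAMB. ATF3 passed there with an adjusted p of 0.0370 (edgeR), at 0.19 against a median of 0.096 for all genes. Relative to EV, 3 of the 19 genes responded higher in shAMB and 3 lower, against 23.7% and 21.7% of all genes tested. In EV, CHAC1 read 0.61, DDIT4 0.20, STC2 0.094 and ATF3 -0.023, and none passed. Whether ATF4 bears on the enzymes was not tested.

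Of 5 tested regulators, 1 was higher and 1 lower in sh4, 2 and 2 in shAMB, and 2 and 1 in the xenografts. MYCN mRNA rose in sh4 from a mean of 2192 to 3513 CPM (0.68, log2), in shAMB from 2128 to 6316 CPM (1.57) and in the xenografts from 2595 to 7157 CPM (1.46). MAX, its partner in DNA binding, fell in sh4 (-0.22), shAMB (-0.59) and the xenografts (-0.48). KDM4C, a histone demethylase, rose in shAMB (0.37) and the xenografts (0.55), and NFE2L2, the regulator of oxidative stress genes, fell in shAMB (-0.19). MYCN rose and MAX fell in both lines, and 6 of the 10 enzymes went in opposite directions in them. Whether MYCN or MAX bears on the enzymes was not tested.

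Genes with the most similar pattern were taken as those with the smallest Euclidean distance over the 4 log2 fold changes (EV, sh4, shAMB, xenografts) among 12480 genes. For PHGDH these were the long noncoding RNA LINC01234 (distance 0.339) and ATOX1 (0.529), which fell in shAMB by log2 fold changes of -2.11 and -2.63. PSAT1 had closer neighbours, namely PRDM4 (0.0555) and TAF8 (0.0898). For SHMT1 they were LTBP1 (0.0977) and PQLC3 (0.160), and for PSPH CCDC25 (0.152) and BROX (0.154). SHMT2 lay nearest to PPP2R1A (0.0953) and DYRK4 (0.115), and MTHFD2 to RAD51B (0.0785) and SCRN1 (0.0799). ALDH1L2 lay nearest to YPEL5 (0.222) and PLCD4 (0.224), ASNS to RAB27A (0.120) and STX3 (0.144), and MTHFD1L to TTC7B (0.0382) and ALAS1 (0.0506).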

How the data were processed

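The authors deposited, for 18 cell culture and 8 xenograft libraries, tables of RSEM expected counts (model estimates, some of them fractional) and of TPM, each with 26485 genes, and a gene length in bases. The submitters' processing notes name STAR, SAMtools, RSEM and hg38, and their versions for these libraries are not given in the sources used here. The labels name both polyA RNA and a stranded total RNA kit. How mouse reads were treated in the xenografts is also not given.

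Expected counts were rounded and tested with edgeR 4.0.16 (R 4.3.3) by the quasi-likelihood F test, with TMM scaling, filterByExpr and Benjamini-Hochberg adjustment over 14905 genes in culture and 15960 in xenografts. One fit with a mean per group held all 18 culture libraries and another the 8 xenografts. A gene changed where the adjusted p was under 0.05. Standard errors and 95% intervals come from the fit, and SDs are over libraries. The steps were tested on simulated counts. Alternatives were RLE size factors, no filter, DESeq2 1.42.0, limma 3.58.1 on log2(TPM + 0.5) of the deposited TPM, leaving out each library, the replicate number as a block, removal of GC and length trends, and fits of only the lines compared.

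The 10 members and all gene lists were chosen with earlier results of these data known. From each other list at most 4 genes were named (mean of at least 1 CPM, changed in a doxycycline or KO comparison, ranked by the largest log2 fold change), and ATF4, DDIT3, CHAC1, TRIB3, MYCN and MAX were always named. DLD was named outside this rule and is not plotted. For members called in at least 2 of the 4 comparisons, the 2 nearest genes were named. A gene that this rule names in the folate list is not reported here. Between replicates counts differed by more than sampling noise. No molecular identifiers are named, so counts are not independent molecules.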

Additional observations from a re-analysis of the deposited data

Results flagged for a closer look

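SHMT2 in KO-labelled xenograft replicate 1, at 88.4 CPM, stood far from the other 3 libraries of its group, the nearest of which was at 39.2 CPM. The gap was 0.896 of the range of the group, above Dixon's 95% critical value for groups of 4. Of 32 gene and group combinations tested this way about 1 in 20 would pass by chance, and 1 did. SHMT2, called lower with all 4 libraries, was also called lower without this one (log2 fold change -1.58, adjusted p = 1.37e-05, edgeR).

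The effects of doxycycline differed between lines, by a test of the difference itself in edgeR, for these genes. Between sh4 and EV the log2 differences were 0.35 for PSAT1, 0.30 for PSPH, 0.48 for SHMT1, 0.38 for ALDH1L2 and 0.47 for ASNS, with adjusted p of 0.00465, 0.0175, 0.00119, 0.0128 and 0.00115. Between shAMB and EV they were -2.54 for PHGDH, -0.62 for PSAT1, -1.06 for PSPH, -1.19 for SHMT1, -0.67 for SHMT2, -0.57 for MTHFD2, -0.99 for ALDH1L2 and -0.66 for ASNS, of which SHMT2 had the highest adjusted p (0.0277, edgeR). Between sh4 and shAMB they were 2.12 for PHGDH, 0.97 for PSAT1, 1.36 for PSPH, 1.67 for SHMT1, -0.13 for MTHFD1, 0.82 for MTHFD2, 1.37 for ALDH1L2 and 1.13 for ASNS, of which MTHFD1 had the highest adjusted p (0.0248, edgeR).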

How the results depend on the processing

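Counts of called members stayed within 1.5 times the reported ones under RLE size factors, no filter on low counts and fits of only the lines compared. Exceptions elsewhere were as follows. Between shAMB and EV with DMSO, 1 member was called by DESeq2, with GC content and length trends removed, and with those trends and the replicate block. In EV with doxycycline 2 were called with GC content and length trends removed and 1 with those trends and the replicate block. With limma on TPM 8 were called between the effects in sh4 and EV and 3 in the xenografts, where PSAT1, PSPH and MTHFD2 lost their calls. With limma on TPM MTHFD1 turned direction in sh4 (0.12, adjusted p = 0.00272) and in sh4 minus EV (0.11, adjusted p = 0.0455), and the cause was not tested. Leaving out 1 library gave 5 to 8 calls in sh4 minus EV and 0 to 1 between shAMB and EV with DMSO, 6 to 8 in sh4, 8 to 10 in shAMB, 7 to 8 in shAMB minus EV, 7 to 8 in sh4 minus shAMB, 6 to 7 in the xenografts and 0 in EV. With the replicate block, the counts were 7 in sh4, 9 in shAMB, 5 in sh4 minus EV, 8 in shAMB minus EV, 8 in sh4 minus shAMB and 6 in the xenografts, all as reported. Deviations of same-numbered libraries from their group means correlated at -0.60 to 0.37. The numbers were not used as pairs because no label says that a number marks a shared culture or day. The members held at least 620 counts in each library, so that the spread between libraries, wide for PHGDH and SHMT2, limits their comparison.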

Other observations

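The mitochondrial dehydrogenase MTHFD2 and the cytosolic MTHFD1, which process the same one-carbon units in different compartments, were compared per length within each library, as a description with no test. MTHFD2 over MTHFD1 was 2.28 to 2.54 in shAMB with DMSO and 1.42 to 1.55 with doxycycline. In the xenografts it was 2.17 to 2.67 in controls and 1.63 to 1.80 under the KO label. In sh4 it was 1.88 to 2.10 with DMSO and 2.19 to 2.71 with doxycycline, so that the ratio was lower in every library of shAMB with doxycycline and of the KO label, and higher in every sh4 library with doxycycline, than in the libraries it was compared with. In EV the ranges of 2.07 to 2.44 and 2.11 to 2.17 overlapped.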
